A study of Mus musculus with 6 samples.

Results

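The genes of mouse chromosome 18 were examined in sarcoma cells carrying a hairpin against Postn and in cells carrying a scrambled hairpin. Of the 862 genes placed on the chromosome (GRCm38, mm10) among 35727 in the deposited table, 281 had a mean above 4 CPM (read counts scaled to the library total) over the 6 libraries, and these 281 are described. They were selected on position and on that mean level, and 278 of them are protein coding and 3 are processed pseudogenes. The chromosome was chosen because its genes were already known to be shifted between the groups in these data. The shift and the distance of each gene from it are therefore given as a description, with no test. Of the 581 genes left out for their level, 339 had no read in any library.

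The cells come from 1 tumour line made from mesenchymal stem cells of female C57/Bl6 p53KO mice. A retroviral vector gave that line Ccne1 overexpression and RFP, a red fluorescent tracer, and it had been passed through female wild-type mice before the hairpins were added. Loss of p53, forced cyclin E1 and the tracer are thus shared by all libraries, which differ in the viral hairpin, scrambled (shSCR, n = 3) or against Postn (shPostn, n = 3). RFP-positive cells were sorted from tumours grown in mice of unstated age, and poly(A) RNA was sequenced. No second line per hairpin is named and the sources used here do not say that the libraries of a group are from separate tumours, so p-values and SEs measure only the spread between these libraries, and the hairpin and the history of each transduced line cannot be told apart.

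Transcript levels usually scale with the number of copies of a gene, so gain or loss of a whole chromosome tends to move most of its genes by a similar factor. Feedback control, signal-dependent promoters and a change in cell makeup can move single genes away from the rest. Proteins that work as fixed-ratio complexes, such as ribosomes, draw their subunits from many chromosomes, and surplus subunits are commonly degraded. Cells that lack p53 tolerate abnormal chromosome numbers more readily than normal cells. DNA copy number was not analysed here.

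The libraries held between 19603269 and 20376554 counts. Postn, the gene targeted by the hairpin, encodes the matrix protein periostin and was at 4097, 3602 and 3225 CPM in the shSCR libraries and at 217, 471 and 639 CPM in the shPostn libraries (log2 fold change -3.04, SE 0.41, edgeR adjusted p = 0.0125). The adjusted p was 0.0532 without shSCR replicate 1 and 0.0542 without shSCR replicate 2. The summed level of a list of mesenchymal markers lay between 25745 and 45885 CPM per library, and that of epithelial markers between 0.10 and 1.18 CPM, with Krt5 and Krt18 at 0 in all libraries. The sums were 162 to 259 CPM for pericyte markers, 1.49 to 6.99 CPM for endothelial, 1.66 to 3.10 CPM for T and NK cell, 0.76 to 1.95 CPM for B cell, 0.81 to 6.52 CPM for neutrophil and 0.15 to 27.6 CPM for erythroid markers. A list of 18 leukocyte markers summed to 344, 247 and 143 CPM in shSCR and to 223, 101 and 1626 CPM in shPostn, so shPostn replicate 3 stood apart. The highest erythroid, endothelial, T and NK cell, B cell and mesenchymal sums were in that library too. The highest neutrophil and epithelial sums were in shPostn replicate 1, and the highest pericyte sum was in shPostn replicate 2.

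The chromosome was lower as a block in the shPostn cells. The median log2 fold change of its 281 genes (shPostn minus shSCR) was -0.45, which is 73.3% of the shSCR level, and the middle of the distribution ran from -0.57 to -0.31 (quartiles). A negative fold change was found for 256 genes (91.1%) and a positive one for 25. The libraries of the groups did not overlap for 215 genes lower in shPostn (76.5%, against 17% of all 12819 genes tested) and for 6 genes higher in shPostn (16.6% of all genes tested). By edgeR's quasi-likelihood test with Benjamini-Hochberg adjustment, 162 members were called lower (57.7%, against 5.53% of all genes tested) and 1 was called higher (4.61% of all genes tested). Leaving out 1 shSCR library at a time took the count called lower to 82 to 86. Calls in either direction over all genes tested fell from 1300 to 429, 307 and 404 without shSCR replicates 1, 2 and 3. The single higher call, Mkx, was lost without shSCR replicate 1, 2 or 3 or shPostn replicate 2. Its mean passed 4 CPM only through the shPostn libraries, where it is high.

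The shift had nearly the same size in each shPostn library. Relative to the mean of the 3 shSCR libraries on the log2 scale, the median over the chromosome's genes was 0.02, -0.03 and 0.01 in shSCR and -0.44, -0.46 and -0.44 in shPostn, so the groups were far apart and the shPostn libraries lay close together. Between 251 and 256 of the 281 genes were below their shSCR mean in each shPostn library, and between 111 and 180 in each shSCR library. The share of all reads that fell on the chromosome was 2.67% ± 0.0246 (SD, n = 3) in shSCR and 1.99% ± 0.0461 (SD, n = 3) in shPostn, a ratio of 0.743.

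Among genes above the same level on the 19 other chromosomes, the chromosome medians ran from -0.14 (chromosome 4) to 0.39 (chromosome 12), with a middle value of 0.02. Chromosome 12, the one with the largest shift the other way, had library medians of 0.50, 0.40 and 0.26 in shPostn, more spread than those of chromosome 18. The genes of chromosome 18 were about as scattered around their own median as genes elsewhere: the interquartile range was 0.255, and on the other chromosomes it ran from 0.218 to 0.279, with 8 of the 19 wider.

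**Figure D1:**
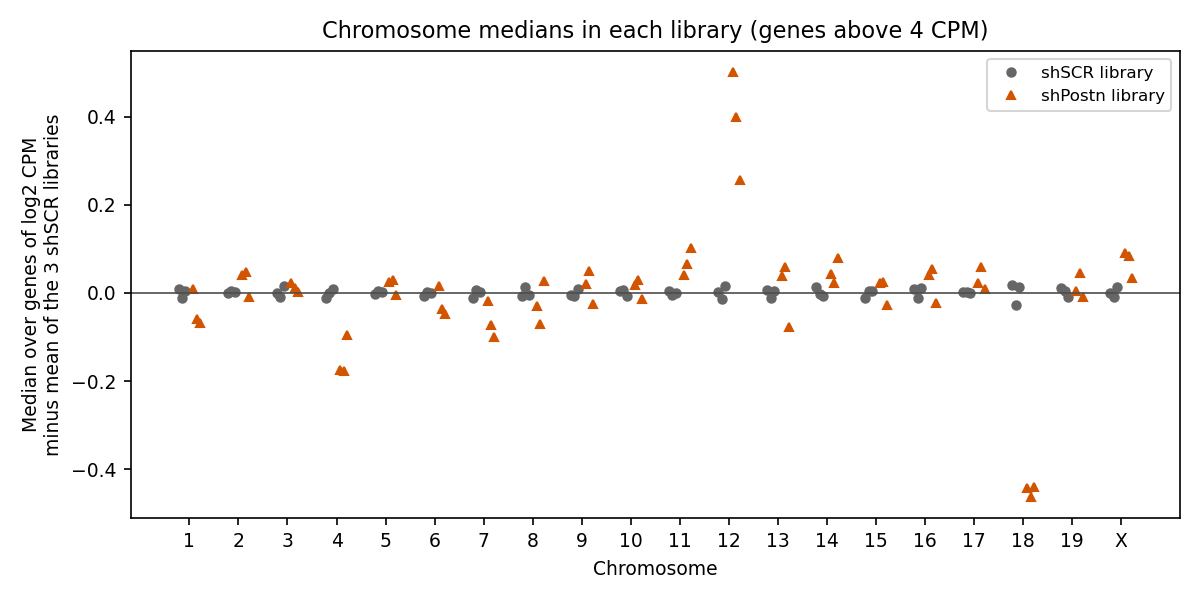
Median over the genes above 4 CPM on each chromosome (x axis) of log2 CPM minus the mean of the 3 shSCR libraries (y axis), with 1 point per library, circles for shSCR and triangles for shPostn. On chromosome 18 the 3 shPostn libraries lie between -0.46 and -0.44, and on chromosome 12 between 0.26 and 0.50.

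The lower level ran along the whole chromosome. The first member starts at 3.27 Mb (Crem, encoding a cyclic AMP-responsive transcription factor) and the last ends at 90.6 Mb. In the 9 bins of 10 Mb that held at least 10 members the median log2 fold change was between -0.52 (20 to 30 Mb, 19 genes) and -0.39 (10 to 20 Mb, 20 genes, and 40 to 50 Mb, 19 genes). The same bins had medians between -0.55 and -0.33 in the single shPostn libraries and between -0.06 and 0.06 in the single shSCR libraries, so no bin overlapped between the groups. The gene-rich bin from 30 to 40 Mb, with 85 members, was at -0.46, and the next richest, from 60 to 70 Mb with 54 members, at -0.48. A running median over 15 neighbouring genes stayed between -0.59 and -0.24 over 267 windows. It was lowest around Impa2 (an inositol monophosphatase), in a stretch that includes Sec11c, Lman1, Pmaip1 and Afg3l2. It was highest around Pcdhb18, inside the protocadherin clusters.

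**Figure D2:**
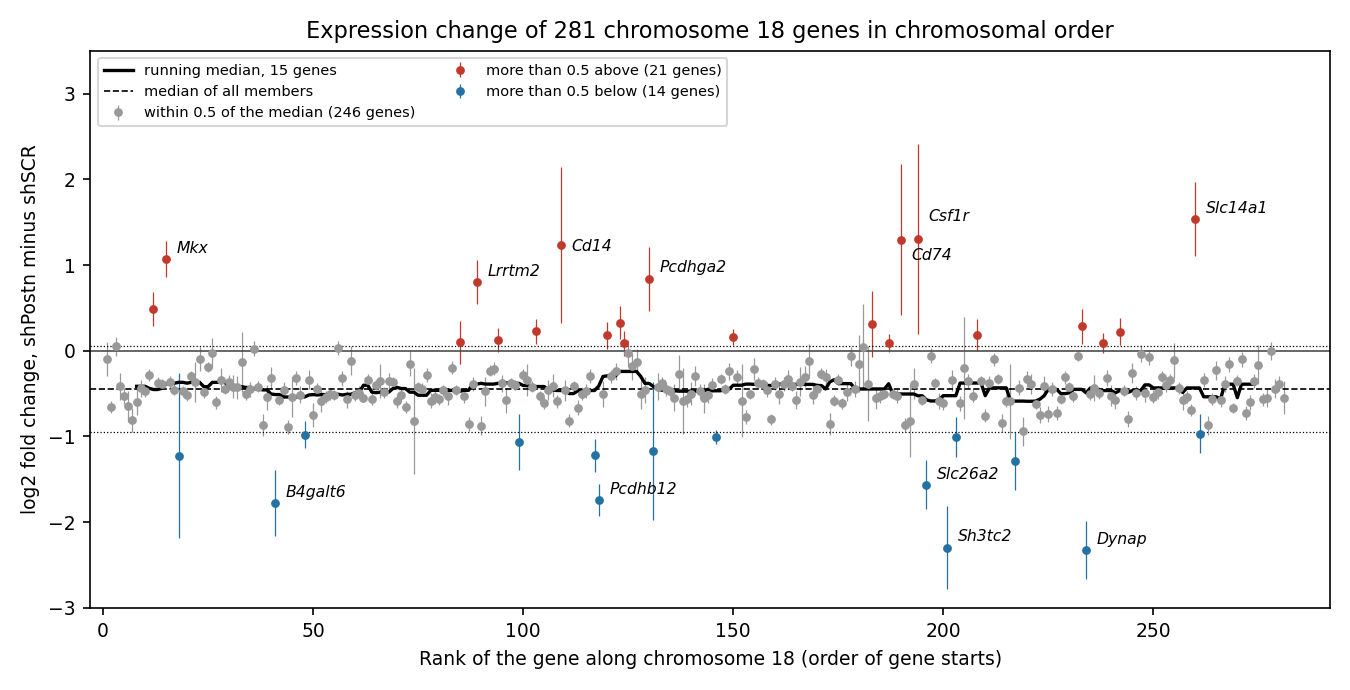
Log2 fold change (y axis, with SE bars) of the 281 chromosome 18 genes by rank along the chromosome (x axis), with the running median of 15 genes, a dashed line at the chromosome median of -0.45 and dotted lines 0.5 above and below it. The running median stays between -0.59 and -0.24 over its 267 windows, which do not centre on the outermost genes of either end, and 246 genes lie between the dotted lines.

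Among the members, the medians by strand, length and level lay between -0.46 and -0.39. Genes on the plus strand had a median of -0.44 and those on the minus strand -0.45. Ordered into 3 bins of nearly equal size by exonic length, from short to long, the medians were -0.46, -0.39 and -0.46. By mean CPM the median was -0.46, -0.45 and -0.44 from the lowest to the highest bin, while the scatter differed. The 62 tested genes of the chromosome that were not above 4 CPM, which are no members, had a median of -0.60 and an interquartile range of 1.02. Within the members the interquartile range was 0.470 in the 94 genes between 4.01 and 26.1 CPM, 0.195 in the middle 93 and 0.189 in the 94 genes of at least 70.1 CPM. The lowest bin, in which the fewest reads support each value, held 13 of the genes more than 0.5 above the median and 11 of those more than 0.5 below it.

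With a distance of 0.5 on the log2 scale as the bound, 246 of the 281 genes (87.5%) followed the median, 21 (7.47%) lay above it and 14 (4.98%) below it. On the other chromosomes 9.03% of 10257 genes lay more than 0.5 from their own chromosome's median, 4.78% above and 4.25% below, and the share per chromosome ran from 6.30% to 12.9%. The 12.5% on chromosome 18 was within that range, with 1 chromosome (14) higher. The share above was the highest of all chromosomes, by a hair over chromosome 19 (7.47% each), with a middle value elsewhere of 4.93%. For the share below, 5 of the other 19 chromosomes were higher. The median of mean CPM was 48.1 for the genes that followed, 20.4 for those above and 10.03 for those below. At the upper bound of 0.05, Gm4841 and Gm10557 (both 0.05) were the last genes inside and Pcdhb19 and Mex3c (both 0.09) the first outside. At the lower bound of -0.95, Garem1 (-0.89) and Mppe1 (-0.94) were inside and Pard6g (-0.97) and Zfp35 (-0.98) outside. At the level limit, Gm28285 (4.01 CPM) and Pcdhga2 (4.07 CPM) were included and Mocos (3.72 CPM) and Loxhd1 (3.6 CPM) were not.

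The most abundant members mostly followed the median. Rps14, a protein of the small ribosomal subunit, was at 1185, 1128 and 1212 CPM in shSCR and at 893, 748 and 807 CPM in shPostn (log2 fold change -0.53, SE 0.09). Rpl17, of the large ribosomal subunit, was at 890, 861 and 918 against 682, 591 and 621 CPM (-0.49, SE 0.08). The groups were apart for both, and both lay within 0.1 of the chromosome median. Atp5a1, the alpha subunit of mitochondrial ATP synthase, was at 797, 876 and 821 against 598, 572 and 549 CPM (-0.54, SE 0.07). Hspa9, the mitochondrial Hsp70 that pulls proteins into the matrix, went further, from 918, 975 and 947 to 571, 500 and 495 CPM (-0.86, SE 0.08), although it stayed inside the bound.

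Lox and Pdgfrb, abundant genes of stromal cells, varied widely between libraries of a group. Lox, which cross-links collagen and elastin, was at 803, 559 and 589 CPM in shSCR and at 595, 457 and 464 CPM in shPostn (-0.36, SE 0.17). Pdgfrb, a receptor for platelet-derived growth factor, was at 718, 919 and 956 against 506, 720 and 758 CPM (-0.39, SE 0.18). For both the libraries of the groups overlapped, while the fold change was close to the chromosome median. Dpysl3, a regulator of cytoskeletal filaments, was at 983, 997 and 1030 against 932, 886 and 733 CPM (-0.24, SE 0.10), with no overlap.

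The members of signalling pathways with several genes on the chromosome were mixed in how closely they followed. Smad2, which carries the TGF-beta signal to the nucleus, was at 69.2, 63.6 and 68.8 CPM in shSCR and at 52.8, 45.0 and 46.1 CPM in shPostn (-0.49, SE 0.08). Smad4, the shared partner of the signalling SMADs, was at 146, 131 and 137 against 112, 98.4 and 122 CPM (-0.32, SE 0.09). Smad7, the inhibitor that the pathway itself induces, was at 72.4, 71.7 and 76.6 against 78.0, 62.3 and 68.8 CPM (-0.08, SE 0.09), so its groups overlapped and it lay 0.37 above the chromosome median. In the beta-catenin destruction complex, Apc, its scaffold, was at 107, 100 and 109 against 76.9, 79.7 and 78.8 CPM (-0.43, SE 0.06), and the kinase Csnk1a1 had a fold change of -0.38 (SE 0.06). Ctnna1 and Cdh2, alpha-catenin and N-cadherin of cell junctions, were at -0.39 (SE 0.08) and -0.32 (SE 0.13).

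The functional lists are set beside the 87.5% of all members that followed the median, and no difference between lists was tested. All 16 members of the protein turnover and signalling list and all 15 of the metabolism and membrane transport list followed the median, at list medians of -0.39 and -0.41. The RNA and translation list was at -0.48, with 17 of 18 following. Its release factor Etf1 was at 304, 286 and 286 against 226, 182 and 201 CPM (-0.53, SE 0.09), and Tcof1, needed for ribosomal RNA synthesis, at 188, 210 and 184 against 104, 114 and 100 CPM (-0.87, SE 0.08). The list of transcription factors and chromatin proteins had a median of -0.35 over 24 members, of which 22 followed. In it Tcf4, a basic helix-loop-helix factor, stayed level, at 276, 271 and 286 against 247, 281 and 271 CPM (-0.06, SE 0.07). The cytoskeleton list was at -0.38 with 9 of 10 following. The matrix list, which is wider than matrix proteins, was at -0.51 over 8 members. Below the bound lay 3 of them: the scavenger receptor Colec12, the lactosylceramide enzyme B4galt6 and the sulfate transporter Slc26a2. For Colec12 the groups overlapped. The growth factor list was at -0.39, with 3 of 5 following and Hbegf and Csf1r above the bound. The cell adhesion list was at -0.27, with 11 of 16 following, 4 above and 1 below. It left out 3 members of the protocadherin clusters, Pcdhb5 and Pcdhb12, both below the bound, and Pcdhga6, so its balance of above and below is incomplete. For scale, the median over all genes tested was 0.01.

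A few followers were close to the upper bound with overlapping groups. Impact, a brake on the amino acid sensing kinase GCN2, was at 56.1, 58.2 and 56.8 against 65.4, 56.6 and 51.9 CPM (0.02, SE 0.09). Slc12a2, a sodium, potassium and chloride co-transporter, was at 102, 105 and 123 against 112, 113 and 90.5 CPM (-0.06, SE 0.11). For Tcf4, Smad7, Impact and Slc12a2 at least 1 shPostn library lay above the lowest shSCR library and at least 1 lay below it, so no lower level was seen beyond the spread.

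Protein complexes and families that have 1 to 3 genes on chromosome 18 and the rest elsewhere were listed, 34 in all. Some lists, such as the SMADs, the nuclear lamins and the aminoacyl-tRNA synthetases, are families rather than single complexes, so a partner is a subunit or a paralog. Of the 46 chromosome 18 members in the 34 lists, 44 followed the median, Ska1 lay above and Lars below. The median over all 46 was -0.49 (range -1.01 to 0.22). The libraries were apart, lower in shPostn, for 43 of them, beside 76.5% of all members and 17% of all genes tested. Whether listed genes differ from other members was not tested. For the 309 measured partners encoded on other chromosomes the median was -0.02, and 7 of them (2.27%) lay below the chromosome 18 median. By edgeR's test over all genes 14 partners fell (4.53%, against 5.53% of all genes tested) and 5 rose (1.62%, against 4.61%), shares no higher than those of all genes. Leaving out 1 library at a time moved these counts. The number lower was 4, 3 and 4 without shSCR replicates 1, 2 and 3 and 6 without shPostn replicate 2, and the number higher was 3, 2 and 2 without shSCR replicates 1, 2 and 3 and 20 without shPostn replicate 3. Calls in either direction over all genes tested, 1300 in the main fit, moved as well. They numbered 429, 307 and 404 without shSCR replicates 1, 2 and 3, and 637 and 2220 without shPostn replicates 2 and 3. In 28 of the 34 lists every chromosome 18 member was lower than every measured partner.

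In the 40S ribosomal subunit, Rps14 was at -0.53 and the 31 partners had a median of -0.08, with the lowest, Rps6, at -0.31. In mitochondrial ATP synthase, Atp5a1 was at -0.54 and its 14 partners at a median of -0.01. In respiratory complex I, Ndufa2 was at 46.3, 45.5 and 45.7 CPM in shSCR and at 26.4, 28.2 and 23.7 CPM in shPostn (-0.81, SE 0.08), and its 35 partners had a median of -0.06. Cdc23 of the anaphase-promoting complex, the ligase that starts chromosome separation, was at -0.46 (SE 0.07) and its 13 partners at a median of 0.04. The RNA polymerase II subunit Polr2d (-0.56), the Sm ring protein Snrpd1 (-0.48), the histone deacetylase Hdac3 (-0.47), the dynactin subunit Dctn4 (-0.53), the lipid kinase Pik3c3 (-0.52) and the cullin Cul2 (-0.66) each lay near the chromosome median, with partner medians between -0.06 and 0.10. Lmnb1, the B-type lamin of the nuclear envelope, was at -0.62, and its 2 partners at a median of 0.02.

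Among the listed genes lower than the median but inside the bound, beside Hspa9 and Ndufa2, were Sec11c, a catalytic subunit of signal peptidase (32.6, 32.1 and 31.6 against 15.4, 18.1 and 20.1 CPM, -0.84, SE 0.10), Taf4b of the general factor TFIID (-0.87, SE 0.13) and Atg12, the ubiquitin-like protein of autophagy. Atg12 was at 42.7, 42.4 and 43.2 against 24.9, 25.4 and 23.5 CPM (-0.80, SE 0.06), with no overlap. In the SMAD family the partners had positive fold changes, 0.26 for Smad1, 0.32 for Smad3 and 0.27 for Smad5, and -0.16 for Smad6, and none of these 4 passed edgeR's test.

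**Figure D3:**
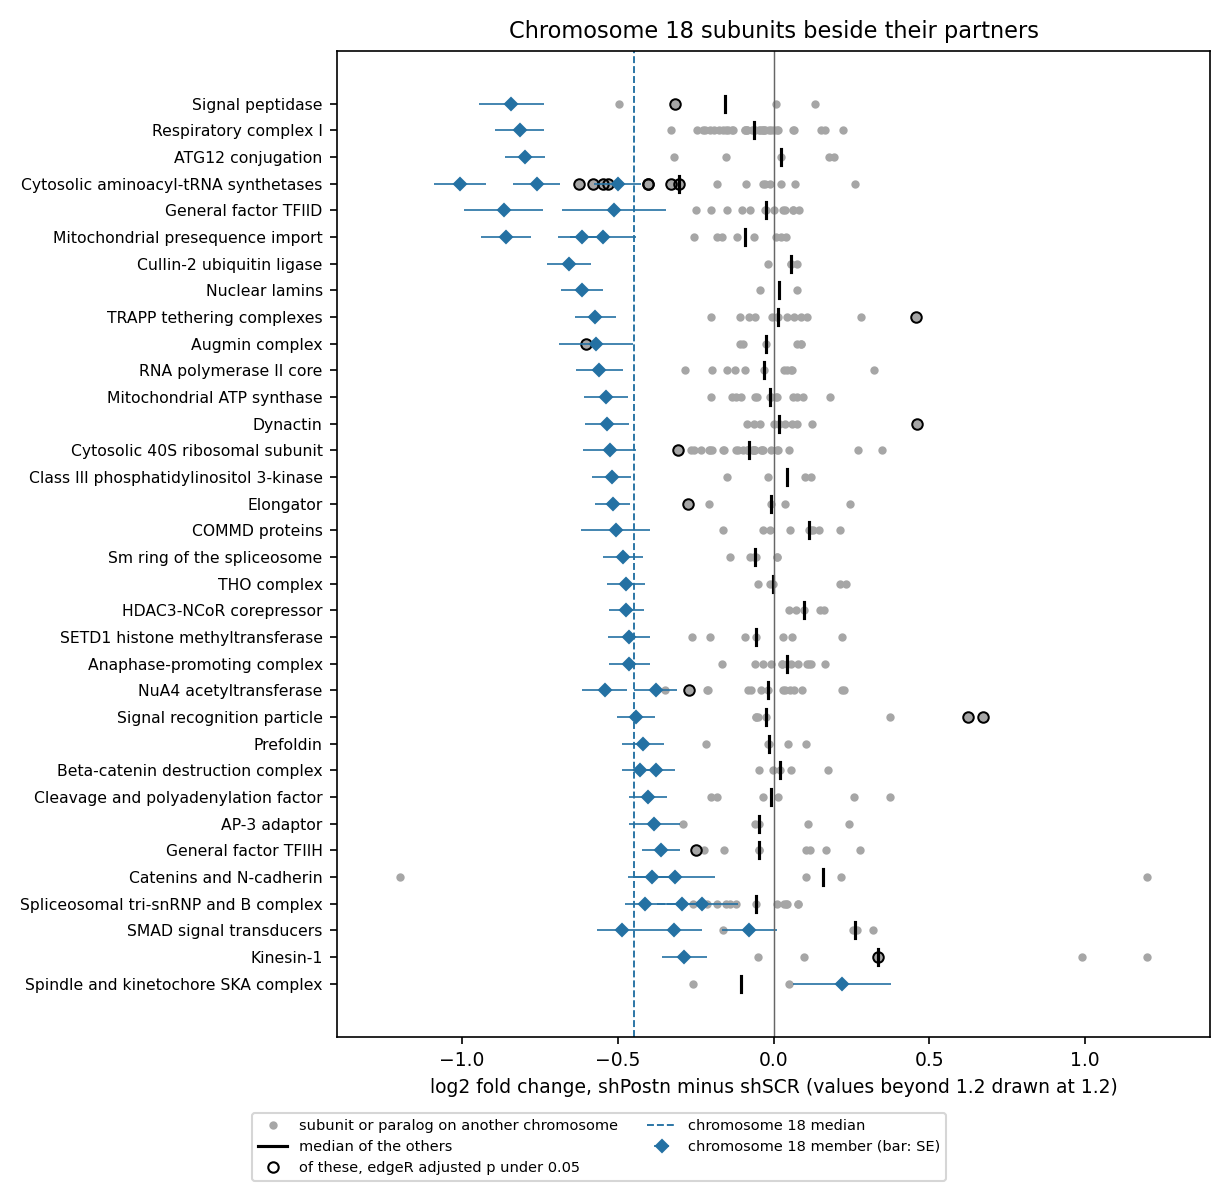
Log2 fold change (x axis) of the chromosome 18 members (diamonds with SE bars) and of the partners on other chromosomes (grey points, ringed where the edgeR adjusted p is under 0.05) in each of the 34 complexes and families (y axis), with a short bar at the partner median, a dashed line at the chromosome 18 median of -0.45 and 3 partners beyond 1.2 in either direction drawn at that limit. The members gather around the dashed line at a median of -0.49 and the partners around a median of -0.02.

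The cytosolic aminoacyl-tRNA synthetases, which charge transfer RNAs with amino acids, were a list in which partners also had lower values. Lars, the leucine enzyme (chromosome 18, 42202298 to 42262194), was at 260, 269 and 262 CPM in shSCR and at 147, 128 and 120 CPM in shPostn (-1.01, SE 0.08). Among the chromosome 18 genes of the 34 lists it was the farthest below the median. Nars, the asparagine enzyme, was at 581, 577 and 554 against 367, 318 and 327 CPM (-0.76, SE 0.08), and Hars, the histidine enzyme, at 94.2, 98.4 and 91.0 against 72.0, 67.6 and 60.9 CPM (-0.50, SE 0.08). All 3 were lower in every shPostn library than in any shSCR library. The 17 synthetases encoded elsewhere had a median of -0.30, the lowest of the 34 partner medians. Of the 17, 8 fell by edgeR's test: Aars, Cars, Eprs, Gars, Iars, Sars, Tars and Yars. Of all genes tested 5.53% were called lower, and no difference between lists was tested. Iars fell by 0.62 on the log2 scale (SE 0.07, edgeR adjusted p = 0.00536) and Yars by 0.58 (SE 0.05, edgeR adjusted p = 0.00312). Cars fell by 0.55 (SE 0.07, edgeR adjusted p = 0.00735). Of the 8, these 3 kept their call with any 1 library left out, with highest edgeR adjusted p of 0.0370, 0.0282 and 0.0376. The count was 3 without shSCR replicate 1, 2 or 3 and 5 without shPostn replicate 2. Calls in either direction over all genes tested also fell, from 1300 to 429, 307 and 404 without shSCR replicates 1, 2 and 3. Without shPostn replicate 2 they numbered 637.

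Among the other partners, Haus6 of the augmin complex, which seeds microtubules in the spindle, fell by 0.60 (SE 0.09, edgeR adjusted p = 0.00951, 0.0518 without shSCR replicate 2), beside a fold change of -0.57 for Haus1 on chromosome 18. Rps6 (-0.31, edgeR adjusted p = 0.0376), Spcs2 of signal peptidase (-0.32, 0.0259), Ruvbl2 of NuA4 (-0.27, 0.0430) and Gtf2h1 of TFIIH (-0.25, 0.0478) fell by less than the chromosome median and lost the call when 1 library was left out (up to 0.145 for Rps6 without shSCR replicate 3, and without shSCR replicate 2 up to 0.105 for Spcs2, 0.154 for Ruvbl2 and 0.174 for Gtf2h1). The 5 partners that rose, Srp54a, Srp54b, Klc1, Actr10 and Trappc6b, are all encoded on chromosome 12, which carries 13 of the 309 partners. Srp54a and Srp54b, copies of the signal recognition particle GTPase, rose by 0.62 and 0.67 (edgeR adjusted p = 0.00663 for each), but near-identical copies share reads and the split between them is uncertain. Klc1 of kinesin-1 rose by 0.33 (edgeR adjusted p = 0.0374), Actr10 of dynactin by 0.46 (0.0125) and Trappc6b of the TRAPP complexes by 0.46 (0.0178), and these 3 calls were lost with edgeR adjusted p of up to 0.152 and 0.0705 without shSCR replicate 2 and 0.0833 without shSCR replicate 3. Of the 14 partners that fell, 4 are on chromosome 4, which carries 19.

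Of the 21 genes above the bound, 6 had no overlap between the groups, while 16.6% of all genes tested were apart and higher. The bound was drawn on the same libraries, so the lack of overlap is no independent support. Slc14a1, a urea transporter (chromosome 18, 78100091 to 78142119), was at 17.8, 7.23 and 14.3 CPM in shSCR and at 52.8, 23.3 and 37.9 CPM in shPostn (1.54, SE 0.43), the highest fold change among the members. Mkx, the Mohawk homeobox factor of tendon cells (6934518 to 7004780), was at 2.95, 2.30 and 3.40 against 5.23, 6.17 and 6.74 CPM (1.07, SE 0.21), a low level in every library. With group means of 2.88 CPM in shSCR and 6.05 CPM in shPostn, it passed the level of 4 CPM only through the group where it is high. Its place among the genes above is thus no independent support. Lrrtm2, a synaptic adhesion protein, was at 7.77, 3.71 and 6.29 against 11.0, 10.6 and 9.34 CPM (0.80, SE 0.26). Lrrtm2 lies within Ctnna1 on the other strand, and the strand setting of the counting is not given in the sources used here, so reads of the pair may not be fully separated. The pseudogene Rpl27-ps3 (0.49, SE 0.19) and Eif3j2 (0.16, SE 0.09) were also apart, but both resemble a gene elsewhere and their counts are uncertain. Pcdhb18, a clustered protocadherin, was at 5.31, 5.33 and 5.74 against 5.90, 8.79 and 5.84 CPM (0.33, SE 0.20), apart by a narrow margin.

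For 15 genes above the bound the groups overlapped, so neither a lower nor a higher level was seen beyond the spread between libraries. Hbegf, a ligand of the EGF receptor, was at 68.9, 59.4 and 65.9 CPM in shSCR and at 89.8, 60.8 and 76.6 CPM in shPostn (0.23, SE 0.14). Egr1, an immediate early transcription factor, was at 407, 376 and 397 against 586, 285 and 393 CPM (0.10, SE 0.25), with shPostn replicates 1 and 2 at the extremes. Iigp1, an interferon-induced GTPase, ranged from 77.6 to 173 in shSCR and from 125 to 232 CPM in shPostn (0.31, SE 0.38). Synpo, an actin-associated protein, was at 214, 210 and 251 against 213, 240 and 266 CPM (0.09, SE 0.11). Ska1, which helps to hold chromosomes to spindle microtubules, was at 9.84, 8.99 and 7.92 against 12.5, 9.45 and 9.19 CPM (0.22, SE 0.16), while its partners had a median of -0.10. Rab27b, a GTPase of vesicle secretion, was at 4.58, 4.10 and 4.67 against 5.85, 6.37 and 4.05 CPM (0.28, SE 0.21). The transcription factor Onecut2 (0.19), Prob1 (0.12) and the RNA-binding ubiquitin ligase Mex3c (0.09) were above the bound by smaller margins.

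Leukocyte genes of the chromosome were above the bound with shPostn replicate 3 and inside it without that library. Csf1r, the receptor for macrophage colony-stimulating factor, was at 15.7, 13.4 and 6.09 CPM in shSCR and at 9.03, 4.45 and 73.2 CPM in shPostn (1.30, SE 1.11). Cd74, the invariant chain of antigen presentation, was at 50.9, 33.8 and 30.7 against 45.0, 22.1 and 216 CPM (1.30, SE 0.88). Cd14, a receptor for bacterial lipopolysaccharide, was at 16.3, 12.8 and 7.36 against 14.1, 6.17 and 65.4 CPM (1.23, SE 0.91). In all 3 the groups overlapped, with 1 high library. The 16 leukocyte markers on other chromosomes summed to 277, 199, 107, 169, 74.4 and 1337 CPM in the same library order, so they were also highest in shPostn replicate 3 and lowest in shPostn replicate 2. Without that library the fold changes were -0.80 for Csf1r, -0.19 for Cd74 and -0.26 for Cd14, all inside the bounds. In sorted bulk RNA a change in the number of leukocytes and a change in RNA per leukocyte cannot be told apart. Tmem173, the STING adaptor, followed the chromosome median (-0.37, SE 0.06), at 67.7, 64.7 and 64.1 against 49.9, 53.1 and 48.7 CPM.

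Of the 14 genes below the bound, 12 were apart between the groups. So were 203 of the 246 genes that followed the median, while 17% of all genes tested were apart and lower. The bound was drawn on the same libraries, so the lack of overlap is no independent support. Dynap, a dynactin-associated protein (70240429 to 70244582), was at 9.05, 10.9 and 8.07 CPM in shSCR and at 2.62, 1.97 and 0.999 CPM in shPostn (-2.33, SE 0.34), the lowest fold change among the members. Sh3tc2, an endosomal protein known from Schwann cells, was at 6.10, 10.3 and 4.26 against 1.13, 0.809 and 2.25 CPM (-2.30, SE 0.48). Both are expressed at a low level, and in both every shPostn library lay under every shSCR library. Both passed the level of 4 CPM only through the shSCR libraries, where they are high. B4galt6, which makes lactosylceramide, was more abundant and likewise apart, at 45.7, 40.1 and 38.7 against 5.75, 12.6 and 17.9 CPM (-1.78, SE 0.39). Slc26a2, the sulfate transporter that supplies proteoglycan synthesis, was at 12.6, 12.02 and 13.0 against 2.41, 5.61 and 4.70 CPM (-1.56, SE 0.28).

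Pmaip1, which encodes the BH3-only cell death protein Noxa, was at 11.8, 10.7 and 10.5 CPM in shSCR and at 2.26, 5.004 and 6.19 CPM in shPostn (-1.29, SE 0.34). Cxxc5, a CXXC zinc finger protein that restrains Wnt signalling, was at 13.1, 11.6 and 9.49 against 2.98, 5.96 and 7.39 CPM (-1.06, SE 0.32). Apcdd1, a membrane inhibitor of Wnt signalling, was at 241, 267 and 309 against 90.9, 172 and 144 CPM (-1.01, SE 0.24). These 3 genes were lowest in shPostn replicate 1 and apart in all libraries. Lars, described with the synthetases, was the most abundant gene below the bound after Apcdd1, and its SE of 0.08 was the smallest of the class. Zfp35 (-0.98, SE 0.16) and the polarity protein Pard6g (-0.97, SE 0.23) lay just past the bound.

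In Colec12 and Pcdhgb1, shPostn replicate 3 lay within the range of the shSCR libraries, so the groups overlapped. Colec12, a scavenger receptor with a collagen-like stalk, was at 20.5, 23.6 and 11.0 CPM in shSCR and at 1.74, 2.53 and 19.3 CPM in shPostn (-1.22, SE 0.96). Pcdhgb1 was at 28.8, 38.9 and 23.6 against 8.21, 2.83 and 29.4 CPM (-1.17, SE 0.80). Without shPostn replicate 3 the fold changes were -3.10 and -2.46. That library also held the most leukocyte marker reads, and whether these reads contribute to Colec12 or Pcdhgb1 was not tested.

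**Figure D4:**
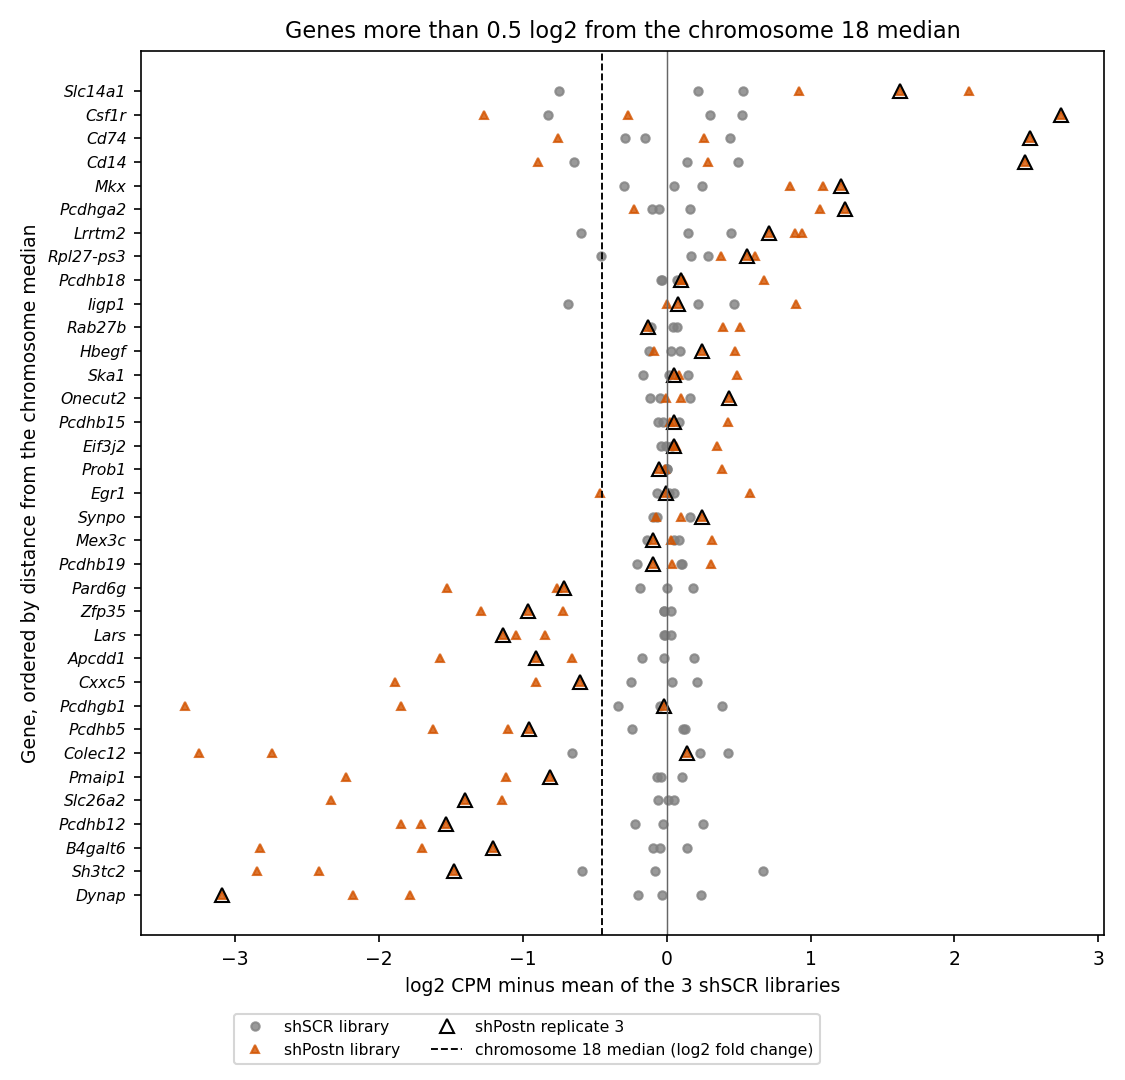
Log2 CPM relative to the mean of the 3 shSCR libraries (x axis) in each library for each gene more than 0.5 from the chromosome 18 median (y axis), with circles for shSCR, triangles for shPostn, an outlined triangle for shPostn replicate 3 and a dashed line at the chromosome median of -0.45. Csf1r, Cd74 and Cd14 are high in shPostn replicate 3, and Dynap, Sh3tc2 and B4galt6 have all 3 shPostn libraries under all 3 shSCR libraries.

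The clustered protocadherins, adhesion proteins that give cells a combinatorial surface identity, were spread widely around the median. This family was singled out after its values were seen. Of the 58 genes of the clusters, 16 were members, with a median of -0.27 and a range from -1.74 to 0.84. Of these 9 followed, 4 lay above and 3 below, and 8 were apart and lower in shPostn. The other 265 members had a median of -0.45, with 237 following and 207 apart and lower in shPostn. Of all genes tested 17% were apart and lower. Pcdhb12 was at 7.08, 9.87 and 8.12 CPM in shSCR and at 2.46, 2.22 and 2.80 CPM in shPostn (-1.74, SE 0.19), and Pcdhb5 at 12.4, 16.0 and 16.1 against 4.72, 6.82 and 7.54 CPM (-1.22, SE 0.20). Neighbouring Pcdhb15, Pcdhb18 and Pcdhb19 lay above the bound, at 0.18, 0.33 and 0.09. Pcdhgc3, the most abundant of the clusters, followed the chromosome, at 511, 529 and 555 against 407, 434 and 384 CPM (-0.38, SE 0.07). Pcdhga2 was at 3.25, 2.79 and 2.69 against 2.46, 6.17 and 6.99 CPM (0.84, SE 0.38), with overlap. Its mean passed 4 CPM only through shPostn replicates 2 and 3, and that of Pcdhb12 only through the shSCR libraries. Genes of the gamma cluster share their last exons, so the assignment of reads among them is uncertain. All of the 16 except Pcdhga6 and Pcdhgc3 were in the lowest bin of mean CPM, where genes of the whole chromosome scattered more, and the part of the level in this spread was not tested.

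Membership of the classes depended in part on single libraries. With each of the 6 libraries left out in turn, 10 of the 21 genes above the bound and 8 of the 14 below it stayed in their class in all 6 fits. The classes then held 19 to 24 genes above and 9 (without shPostn replicate 1) to 20 (without shPostn replicate 3) below. The 10 above were Mkx, Slc14a1, Lrrtm2, Hbegf, Ska1, Rab27b, Eif3j2, Pcdhb18, Pcdhga2 and Rpl27-ps3. The 8 below were Dynap, Sh3tc2, B4galt6, Pcdhb12, Pcdhb5, Slc26a2, Pmaip1 and Lars. Of these genes, Mkx and Pcdhga2 passed the level of 4 CPM only through shPostn libraries. Dynap, Sh3tc2 and Pcdhb12 passed it only through shSCR libraries. Taken library by library, 5 of the genes above and 6 of those below were past the bound in all 3 shPostn libraries. Cd14, Cd74, Csf1r, Synpo and Onecut2 left the class without shPostn replicate 3.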

How the data were processed

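RNA of 6 libraries (3 shSCR, 3 shPostn) was measured by strand-specific poly(A) sequencing. The deposited values are estimated counts per Ensembl gene; per the submitters' processing notes the tool was Salmon and the build mm10, with version and annotation not given in the sources used. All values were whole (0 not whole), so rounding changed nothing. Positions came from GENCODE release M21 (35493 of 35727 IDs). IDs without a position held 0.0220% to 0.0386% of counts.

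The counts were fitted in R 4.3.3 (edgeR 4.0.16, limma 3.58.1): filterByExpr (minimum count 10), TMM scaling, a robust quasi-likelihood F-test of shPostn against shSCR without covariates, and Benjamini-Hochberg adjustment over 12819 genes (threshold 0.05, 1300 called). The fit was tested on simulated data. CPM in the text use TMM-scaled library sizes, except the level of 4 CPM and the mean CPM set beside it, which use library totals. SEs are the size of the log2 fold change over the square root of F. Chromosome positions per library use log2 CPM with a prior count of 2.

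Members, bounds, complexes, functional lists and the 9 marker lists were chosen with earlier results of these data known. Genes were named by rule: the 10 farthest each way, the 10 most abundant, those beside the bounds, complex members, the most abundant and most distant genes of each list, and at most 2 called partners each way per complex, of which 1 is not reported here. Aars, Cars, Eprs, Gars, Sars, Tars, Hbegf, Eif3j2, Onecut2, Prob1, Apcdd1, Pcdhb15, Rpl27-ps3, Crem, Impa2 and Afg3l2 were named after their values were seen. Smad1, Smad3, Smad5, Smad6 and Pcdhga6 were also named outside the rule. Alternatives covered scaling, filter, level, bound, DESeq2 1.42.0, limma-voom, replicate block and leaving out each library.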

Additional observations from a re-analysis of the deposited data

How the results depend on the processing

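The chromosome 18 median stayed between -0.47 and -0.44 under all alternatives run, including TMM factors computed without chromosomes 12 and 18 (-0.45) and members above 1 or 10 CPM (-0.45 each). The counts outside the bounds depended on the level and the bound. Genes above numbered 13 with members above 10 CPM and 10 with a bound of 0.75. Genes below numbered 24 above 1 CPM, 7 above 10 CPM, 22 with a bound of 0.4 and 8 with 0.75. With 1 library left out, genes above numbered 19 to 24, genes below 9 to 20, members called lower 82 to 183, members called higher 0 to 2, partners lower 3 to 19 and partners higher 2 to 20, and the median ran from -0.46 to -0.44. DESeq2 called 3 members higher, 190 members lower, 21 partners lower and 12 partners higher. Among members above 10 CPM edgeR called 0 higher. With the replicate block, 127 members and 6 partners were called lower and 4 partners higher, and Postn had an edgeR adjusted p of 0.0592. Over all genes tested, calls in either direction numbered 1300 in the main fit, 1973 with DESeq2 and 735 with the replicate block. With 1 library left out they numbered 307 to 2220. Same-numbered libraries of the 2 groups deviated with correlations of -0.07, -0.13 and -0.44, so the numbers were not taken as pairs. Of the 19 called partners, Cars, Iars, Yars, Srp54a and Srp54b kept their call in all 15 alternatives. Without shSCR replicate 2 the adjusted p of Postn was 0.0542. Counts alone limit the precision of weakly expressed members.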
